A study of Mus musculus with 192 samples.

Results

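The miR-152-3p mimic was compared with the scrambled mimic in mouse embryonic stem cells (mESCs). Libraries were chosen by their labels alone, and the comparison holds 3 libraries of the miR-152-3p mimic and 3 of the scrambled mimic, among 48 libraries of the mimic experiment and 192 samples in the whole series. All cells were wild-type E14 mESCs, an established line, grown in a modified 2i medium with LIF, a MEK inhibitor and a GSK3 inhibitor. Mimics are double-stranded precursors that release a mature miR in the cell, and they were delivered with a lipid reagent in medium with added serum. The labelled 100 nM is, per the study's methods, the concentration in the transfection mix before it was added to the medium. Cells were collected after 24 h and fixed with paraformaldehyde before RNA extraction, in the scrambled and untransfected controls as well. Each of the 3 batches (b1, b2 and b3) is labelled a biological replicate and holds its own miR-152-3p, scrambled and untransfected library. The other 5 mimics of the same library set (miR-433-3p, miR-23b-5p, miR-467e-5p, miR-99a-5p and miR-100-5p) were used beside them. The comparison asks which mRNAs change when one miR that was assigned to predicted targets is supplied in excess. It describes 1 cell line in bulk, so fewer cells of a kind and less RNA per cell cannot be told apart, and no value here measures how much mimic reached the cells.

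A miR guides an Argonaute protein to messenger RNAs, mostly through pairing of bases 2 to 8 of the miR, the seed, with the 3′ UTR of the message. Argonaute and its partner TNRC6 then recruit deadenylases and decapping enzymes, so that targeted mRNAs are translated less and decay faster. miR-152-3p belongs to the family of miR-148a, miR-148b and miR-152, whose members share a seed and are best known for targeting the maintenance DNA methyltransferase DNMT1. The family's mature sequences from RefSeq (GRCm38) are shown with the seed in capitals, since every class of target site below follows from these bases.
miR-152-3p: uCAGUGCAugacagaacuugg
miR-148a-3p: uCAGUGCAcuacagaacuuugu
miR-148b-3p: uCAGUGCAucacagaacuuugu

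The 3 sequences differ only outside the seed, so a mimic of any of them can pair with the same sites. Mir152 lies at chr11:96850439-96850459 (mature arm, plus strand, GRCm38). A site in the 3′ UTR was called an 8mer where the message carries TGCACTGA, a 7mer-m8 where it carries TGCACTG, a 7mer-A1 where it carries GCACTGA and a 6mer where it carries GCACTG. Only the strand of the message was searched, the shorter words lie within the longer ones, and a gene was classed by its best match in its longest annotated 3′ UTR. Of 11649 tested genes with a 3′ UTR, 512 (4.4%) held an 8mer and 2629 (22.6%) an 8mer or a 7mer. Split by length into 3 groups of like size, the share with an 8mer was 1.44% in short 3′ UTRs (at most 706 bases), 3.53% in middle ones (707 to 1836 bases) and 8.22% in long ones (at least 1837 bases).

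Sites in 10 genes carry the results that follow, and 1 site of each is shown as a window of 30 bases on the strand of the message with the matching bases in capitals.
Arl6ip1 (8mer, chr7:118119163-118119192, minus strand): agtttgtggatccaTGCACTGAtgctgtga
Pnpla6 (8mer, chr8:3544188-3544217, plus strand): ggggagggcagaacTGCACTGAtaaccttt
Dock6 (8mer, chr9:21800228-21800257, minus strand): gccccctgtctgtcTGCACTGAtggattct
Dnmt1 (8mer, chr9:20907483-20907512, minus strand): cccagagccccacgTGCACTGAtgttttta
Itga5 (8mer, chr15:103344390-103344419, minus strand): ttctgcccaccagcTGCACTGAcgctgccc
Ago1 (8mer, chr4:126435382-126435411, minus strand): acaatgtgtctgaaTGCACTGAgtcctctg
Uhmk1 (7mer-m8, chr1:170196341-170196370, minus strand): tgtcccaggggaacTGCACTGtcgcctttc
Klf4 (7mer-m8, chr4:55527377-55527406, minus strand): cagacagtctgttaTGCACTGtggtttcag
Eif4h (8mer, chr5:134620633-134620662, minus strand): gggcagctgtgcttTGCACTGAgtctgcgc
Cyld (8mer, chr8:88749907-88749936, plus strand): tgtttgcatcttccTGCACTGAgttgggag
The first 7 genes fell with the miR-152-3p mimic, Klf4 and Eif4h did not pass the test, and Cyld rose. Coordinates are those of GRCm38. The 8mer of Dnmt1 starts at base 23 of a 3′ UTR of 312 bases, and that of Pnpla6 at base 174 of one of 239 bases. A match is a description of the letters in the 3′ UTR and not a measured site.

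The 6 libraries held 10295309 to 19956820 counts and detected 15330 to 19091 genes. They were fitted together with the rest of the library set (23 libraries, 8109096 to 19956820 counts), with batch as a block. The miR-100-5p mimic library of batch b3 stood apart, with 7035 genes detected from 6257538 counts, and was left out as the study's methods do. Markers of embryonic stem cells (6 genes, Pou5f1, Sox2, Nanog, Esrrb, Zfp42 and Dppa5a) summed to 5376 to 5781 CPM (counts scaled to the library total) with the miR-152-3p mimic and to 4755 to 5591 CPM with scrambled. Of the 3 trophoblast markers Elf5 was at 0 in all miR-152-3p libraries and at up to 0.594 CPM with scrambled. Markers of neuroectoderm (4 genes) summed to 41.4 to 53.5 CPM with the miR-152-3p mimic and to 39.7 to 45.8 CPM with scrambled, and fibroblast, primitive endoderm, trophoblast and 2-cell-like markers reached at most 23.2 CPM in either group.

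Of 12257 genes tested, 60 fell and 29 rose with the miR-152-3p mimic against scrambled at an adjusted p under 0.05 (0.490% and 0.237% of the genes tested). The 3 genes with the lowest p-values, Arl6ip1, Dock6 and Pnpla6, all fell and all have an 8mer. Of the 60 genes that fell, 28 had an 8mer, 11 a 7mer-m8 and 11 a 7mer-A1, so that 50 (83.3%) had an 8mer or a 7mer, against 21.4% of all genes tested. Of the 29 genes that rose, 2 (6.9%) had one. At an unadjusted p under 0.05 lay 1502 genes (12.3%). The changes were small: the median log2 fold change was -0.47 among the genes that fell (range -1.19 to -0.26) and 0.46 among those that rose (range 0.28 to 0.91), and 3 genes had a log2 fold change below -1 (Tsix, Egr1 and Ankrd45). All 60 were lower and all 29 higher in each of the 3 batches, as were 17.8% and 16.3% of all genes tested. The 3 libraries of each group did not overlap for 51 of the 60 genes and for 19 of the 29, whereas 5.17% of all genes tested were lower and 5.07% higher without overlap. Over all genes tested the median log2 fold change was -0.0044. These counts depend on the fit: without the batch term 3 genes fell and 0 rose (729 genes at an unadjusted p under 0.05 in edgeR's quasi-likelihood test), with only the 6 libraries 29 and 14, and with the miR-100-5p library of b3 kept 1 and 0 (118 genes at an unadjusted p under 0.05). DESeq2 with the batch term gave 120 and 87. Leaving out single libraries gave 29 and 16 (miR-152-3p b1), 19 and 10 (miR-152-3p b2), 25 and 9 (miR-152-3p b3), 36 and 18 (scrambled b1), 80 and 58 (scrambled b2) and 18 and 5 (scrambled b3).

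**Figure D1:**
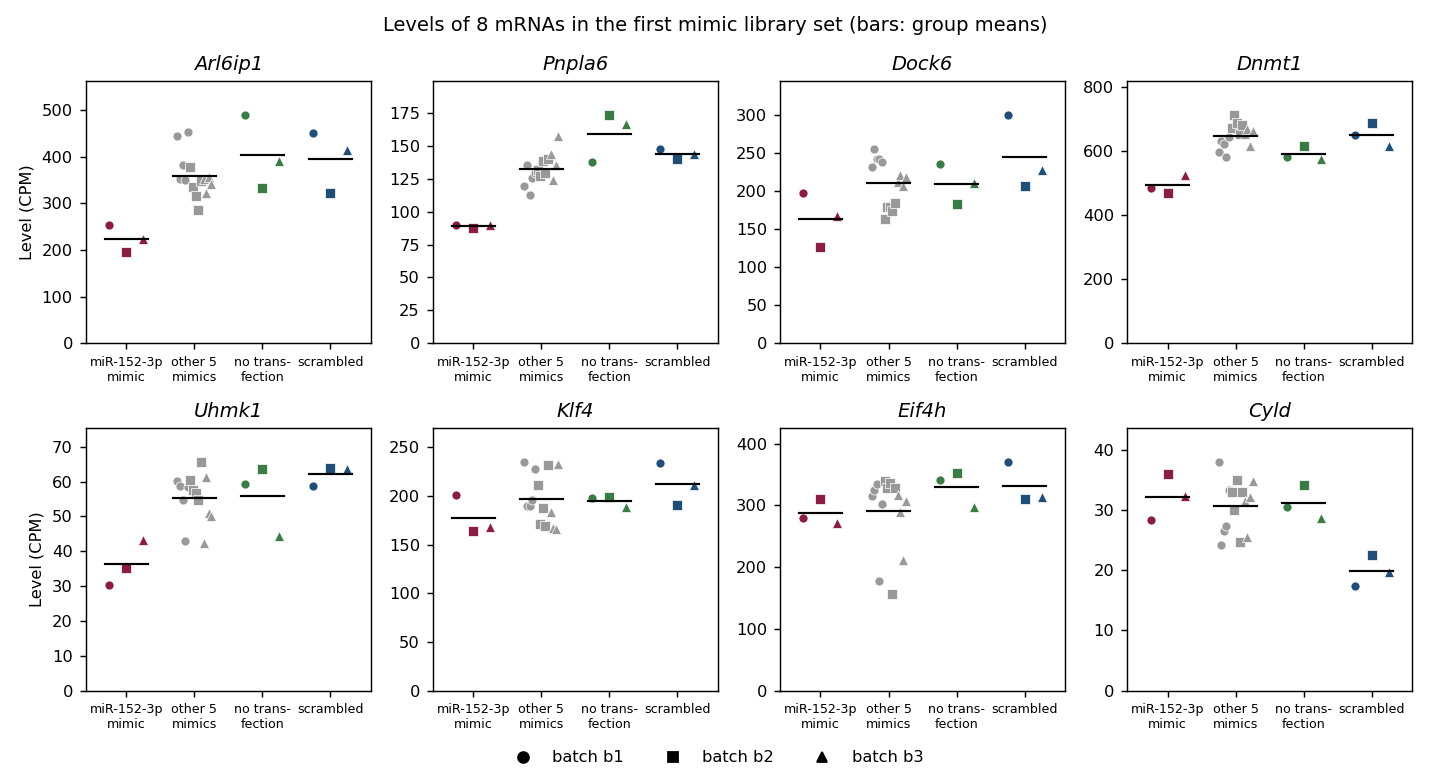
Levels of 8 mRNAs in CPM (vertical axes, from 0) in the libraries of the miR-152-3p mimic, the other 5 mimics, untransfected cells and scrambled, with the batch as the symbol and the group mean as a bar. Arl6ip1, Pnpla6, Dnmt1 and Dock6 were lower in the 3 miR-152-3p libraries than in the 3 scrambled ones, whereas for Cyld it was the scrambled libraries that lay below all others.

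Arl6ip1, an endoplasmic reticulum protein that shapes membranes, had 254, 196 and 223 CPM in batches b1, b2 and b3 of the miR-152-3p mimic, against 449.9, 323 and 415 CPM with scrambled. All 3 miR-152-3p libraries lay below all 3 scrambled libraries, and also below the lowest library of the other mimics (285 CPM) and of untransfected cells (333 CPM). The log2 fold change was -0.82 (SE 0.08, adjusted p = 2.4e-06), and its 3′ UTR held 3 matches of 7 or 8 bases. It passed the test in every fit but the one without the batch term (adjusted p = 0.0541).

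Pnpla6, a phospholipase that hydrolyses lysophosphatidylcholine, had 89.7, 87.3 and 89.8 CPM with the miR-152-3p mimic, against 147, 139.9 and 144 CPM with scrambled. The groups were separated by far more than their spread. The log2 fold change was -0.69 (SE 0.08, adjusted p = 3.57e-05), and Pnpla6 was the 1 named gene that also passed without the batch term (adjusted p = 0.00699). Dock6, an exchange factor for the small GTPases Rac and Cdc42, had 198, 126 and 167 CPM with the miR-152-3p mimic, against 299, 206 and 227 CPM with scrambled. Its level varied more between batches, yet it was lower with the mimic within each of them (log2 fold change -0.58, SE 0.07, adjusted p = 1.91e-05).

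Dnmt1, which copies DNA methylation to the new strand after replication, had 486, 469 and 526 CPM with the miR-152-3p mimic, against 650.1, 687 and 615 CPM with scrambled. The log2 fold change was -0.40 (SE 0.06, adjusted p = 8.41e-04), and the groups did not overlap. The level of Dnmt1 was 582 to 711 CPM in the libraries of the other 5 mimics and 576 to 616 CPM in untransfected cells, all above the 3 miR-152-3p libraries. Against the mean of the other 5 mimics the log2 fold change was -0.39 (SE 0.05, adjusted p = 6.38e-05), whereas against untransfected cells it was -0.26 and did not pass the test (adjusted p = 0.0645). Nor did Dnmt1 pass against scrambled without the batch term (adjusted p = 0.0663). Itga5, the integrin subunit that binds fibronectin with integrin beta 1, is another reported target of the family. It had 111, 105 and 107 CPM with the miR-152-3p mimic, against 158, 161 and 144 CPM with scrambled (log2 fold change -0.52, SE 0.08, adjusted p = 8.41e-04), again without overlap.

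Uhmk1, a serine and threonine kinase with an RNA recognition motif, had 30.2, 35.2 and 43.2 CPM with the miR-152-3p mimic, against 58.8, 63.9 and 63.7 CPM with scrambled. It had the largest decrease among the 11 genes of the 7mer-m8 class that fell (log2 fold change -0.77, SE 0.14, adjusted p = 0.00428), and its 3′ UTR of 6583 bases held 4 such matches. Atg12, a ubiquitin-like protein of autophagy (8mer), had 40.8, 24.3 and 33.6 CPM with the miR-152-3p mimic, against 59.2, 46.4 and 58.5 CPM with scrambled (log2 fold change -0.75, SE 0.13, adjusted p = 0.00325). Kat7, the histone acetyltransferase HBO1 (8mer), had 221, 216 and 209 CPM with the miR-152-3p mimic, against 257, 284 and 285 CPM with scrambled. In all 3 genes the highest miR-152-3p library lay below the lowest scrambled one. The difference was smaller for Kat7 than for Uhmk1 and Atg12 (log2 fold change -0.35, SE 0.06, adjusted p = 0.00511).

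The remaining named decreases in genes with a site ranged from -1.08 to -0.33 in log2 fold change against scrambled. Emc1, a subunit of the membrane protein insertion complex of the endoplasmic reticulum, Mgat5, a glycosyltransferase that branches N-glycans, and Ankrd45 each had an 8mer, with log2 fold changes of -0.64, -0.65 and -1.08. Ankrd45 was at 7.04 to 13.8 CPM with the miR-152-3p mimic and at 13.1 to 28.8 CPM with scrambled, and its groups overlapped. Ankrd45 also fell against scrambled with miR-467e-5p (log2 fold change -1.61, adjusted p = 5.12e-05) and with miR-433-3p (log2 fold change -0.85, adjusted p = 0.0259), and for the miR-152-3p mimic against the other 5 mimics its log2 fold change was -0.35 (adjusted p = 0.48). Atp6ap2, an accessory subunit of the vacuolar proton pump, and Il17rd, an inhibitor of fibroblast growth factor signalling, had a 7mer-A1 and log2 fold changes of -0.59 and -0.68. Rictor, the defining subunit of mTOR complex 2 (7mer-m8), had a log2 fold change of -0.67 and passed the test in 1 of the 6 fits with a library left out. Its log2 fold change was -0.37 against the other 5 mimics (adjusted p = 0.264) and -0.36 against untransfected cells (adjusted p = 0.473). Rptor, the defining subunit of mTOR complex 1 (7mer-m8), had a log2 fold change of -0.33 against scrambled. For Rptor it was -0.12 against the other 5 mimics (adjusted p = 0.543) and -0.18 against untransfected cells (adjusted p = 0.453). Against the other 5 mimics Emc1 and Atp6ap2 fell as well (log2 fold changes of -0.44 and -0.42, adjusted p = 0.0231 and 0.018), whereas Mgat5 and Il17rd did not pass the test (log2 fold changes of -0.50 and -0.36, adjusted p = 0.051 and 0.0847). Rptor, Kat7, Sms, Gnpat, Ccnf, Dcp2, Otud4, Morf4l1, Serp1, Rap1b, Tnrc6a, Dppa3, Nr0b1, Col4a1, Sesn2 and Ccne1 fall outside the rule for named genes and were chosen after their values were seen.

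Of the 60 genes that fell, 10 had no match of 7 or 8 bases: 2 had a 6mer, 5 no match and 3 no annotated 3′ UTR. Tsix, the antisense transcript of Xist, had the largest decrease of all. It had 5.54, 4.89 and 7.49 CPM with the miR-152-3p mimic, against 8.08, 14.2 and 20.4 CPM with scrambled (log2 fold change -1.19, SE 0.24, adjusted p = 0.0132). Tsix overlaps Xist on the other strand, and its reads are separated from those of Xist only by the strand-specific libraries. Egr1, an immediate early transcription factor, had 1.88, 2.41 and 29.5 CPM with the miR-152-3p mimic, against 6.62, 5.94 and 40.7 CPM with scrambled. Its level in batch b3 was several-fold that in the other batches in both groups, so the groups overlapped (log2 fold change -1.12, SE 0.26, adjusted p = 0.0371). The mitochondrial gene mt-Atp6 had 109, 133 and 112 CPM with the miR-152-3p mimic, against 167, 241 and 193 CPM with scrambled (log2 fold change -0.75, SE 0.17, adjusted p = 0.0309). It ranged over 83.5 to 259 CPM in the other mimics. Against those 5 mimics mt-Atp6 and Tsix also fell (log2 fold changes of -0.60 and -0.87, adjusted p = 0.0411 and 0.0423). Egr1 and Gm7336 did not pass that test (log2 fold changes of -0.66 and -0.27, adjusted p = 0.233 and 0.341). Against untransfected cells mt-Atp6 fell (log2 fold change -1.14, adjusted p = 0.00161), whereas Tsix did not pass the test (log2 fold change -0.97, adjusted p = 0.111). Gm7336 is a processed pseudogene, so that its reads may be shared with its parent gene. Morf4l1, a chromodomain protein of the NuA4 acetyltransferase, had no match in its 3′ UTR and yet fell against scrambled (log2 fold change -0.26, adjusted p = 0.0315) and against the other 5 mimics (log2 fold change -0.33, adjusted p = 4.85e-04).

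The genes that rose were also set beside the other mimics and untransfected cells. Cyld, a deubiquitinase that restrains NF-kappa-B signalling and the only gene with an 8mer that rose, had 28.4, 36.1 and 32.3 CPM with the miR-152-3p mimic, against 17.3, 22.6 and 19.8 CPM with scrambled (log2 fold change 0.70, SE 0.14, adjusted p = 0.0104). It had 24.2 to 38.0 CPM with the other mimics and 28.8 to 34.3 CPM without transfection, so that the scrambled libraries were the low ones. The log2 fold change against the other 5 mimics was 0.058 (SE 0.11, adjusted p = 0.926). Sycp3, a protein of the meiotic synaptonemal complex, was the other gene with a site that rose (7mer-A1). It had 41.1, 34.1 and 41.2 CPM with the miR-152-3p mimic, against 26.9, 21.3 and 24.3 CPM with scrambled, without overlap (log2 fold change 0.70, SE 0.16, adjusted p = 0.0309). Against the other 5 mimics its log2 fold change was 0.32 (adjusted p = 0.329). Serp1 and Rap1b were among the 3 genes that differed between untransfected cells and scrambled at an adjusted p under 0.10 (0.0245% of the genes tested, all higher in untransfected cells, with 0 lower, 703 genes or 5.74% at an unadjusted p under 0.05, and 13 higher and 2 lower by DESeq2), and all 3 are among the 29 genes that rose. Fam98b, Ankmy2, Cdk2ap1, Impa1 and Sfn also rose against scrambled (log2 fold changes of 0.63, 0.67, 0.53, 0.50 and 0.53), with log2 fold changes of 0.021, 0.16, 0.038, 0.12 and 0.12 against the other 5 mimics.

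Krt18, a keratin of simple epithelia, was the exception. It had 26.9, 29.4 and 27.4 CPM with the miR-152-3p mimic, against 19.1, 16.8 and 15.7 CPM with scrambled (log2 fold change 0.71, SE 0.17, adjusted p = 0.0404). It was the only 1 of the 29 genes that also passed the test against the other 5 mimics (log2 fold change 0.59, adjusted p = 0.0223), although against scrambled it no longer passed the test when any 1 of the 6 libraries was left out (log2 fold changes of 0.59 to 0.80). Fgf4, a growth factor that mESCs secrete and that drives their exit from pluripotency, had 284.5, 271 and 243 CPM with the miR-152-3p mimic, against 216, 219.8 and 182 CPM with scrambled. Its increase (log2 fold change 0.37, SE 0.06, adjusted p = 0.00324) did not pass the test against the other 5 mimics (log2 fold change 0.16, adjusted p = 0.2). Gm4739 and Gm21596, which rose as well, are processed pseudogenes.

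The comparison of the miR-152-3p mimic with the mean of the other 5 mimics shares the miR-152-3p libraries but not the scrambled ones. In it 41 genes fell and 16 rose (0.335% and 0.131% of the genes tested), and 29 of the 41 genes that fell had an 8mer. Of the 60 genes that fell against scrambled 24 (40.0%) also fell here, and of the 29 that rose 1 did. Arl6ip1 (log2 fold change -0.69), Atg12 (-0.70), Uhmk1 (-0.61), Pnpla6 (-0.57), Gnpat (-0.53, an enzyme of ether lipid synthesis), Sms (-0.47, spermine synthase), Kat7 (-0.36) and Ccnf (-0.30, cyclin F) were among those that passed both tests. Against untransfected cells 24 genes fell and 3 rose (0.196% and 0.0245% of the genes tested). Of the 60 genes that fell against scrambled 18 also fell against untransfected cells, and of the 29 that rose 0 did. In the comparison of untransfected cells with scrambled, 54 of the 60 genes had a log2 fold change below 0 and 28 of the 29 one above 0, and these comparisons share the scrambled libraries.

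**Figure D2:**
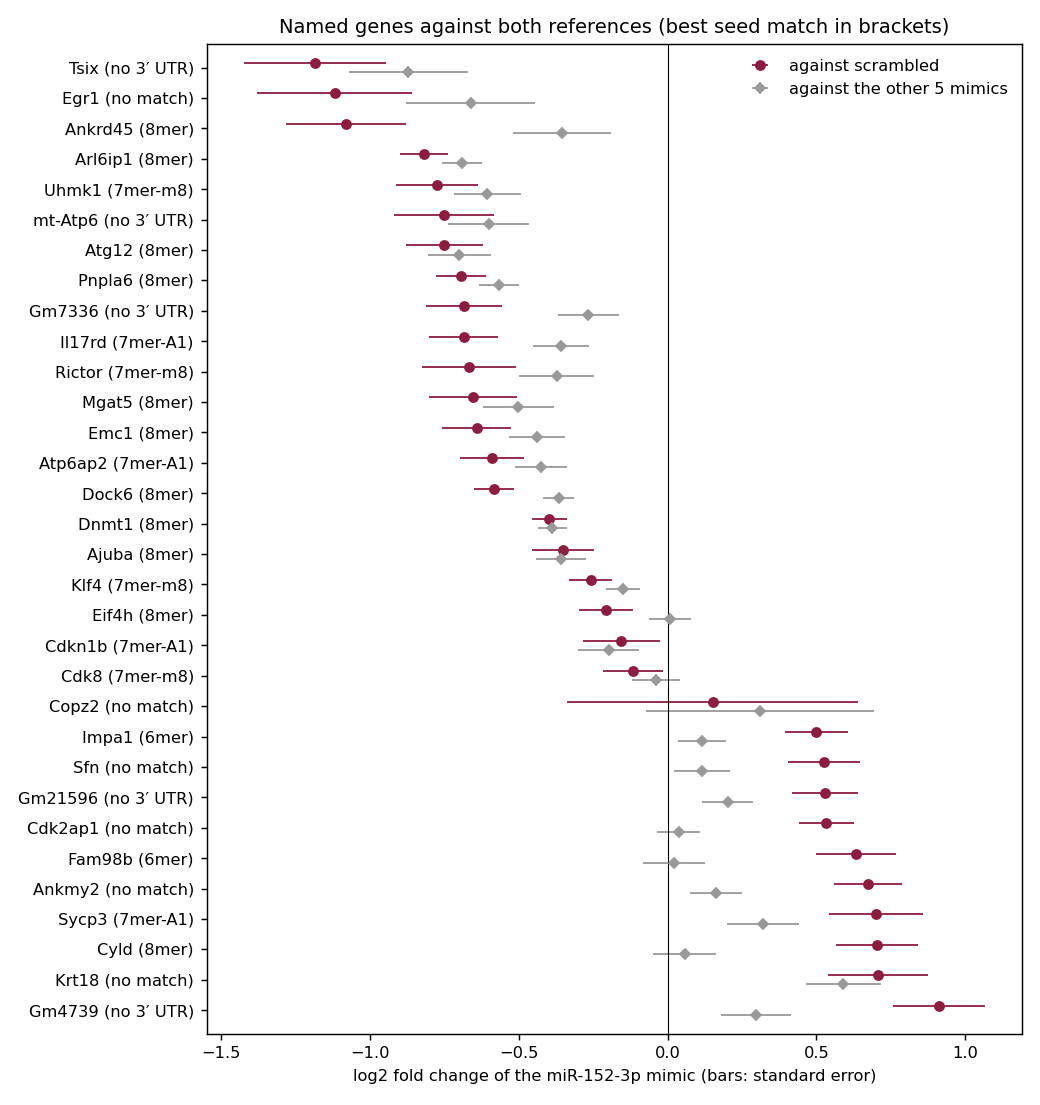
Log2 fold changes with standard errors (horizontal axis) of the miR-152-3p mimic for 32 of the named genes, from the lowest to the highest. Circles give the comparison with scrambled and diamonds that with the mean of the other 5 mimics. The best seed match is in brackets. For Arl6ip1 (-0.82 and -0.69) and Dnmt1 (-0.40 and -0.39) the 2 values were close, whereas for Cyld (0.70 and 0.058) and Fam98b (0.63 and 0.021) the value against the other mimics was near 0.

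Over all genes tested, the classes of best seed match had different medians. The median log2 fold change against scrambled was -0.13 for the 512 genes with an 8mer, -0.064 for the 1296 with a 7mer-m8, -0.049 for the 821 with a 7mer-A1, -0.016 for the 1884 with a 6mer and 0.022 for the 7136 with no match. Of the 8mer genes 73.8% had a log2 fold change below 0, against 51.0% of all genes tested, and 5.47% passed the test as lower, against 0.490%. In batches b1, b2 and b3 the 8mer median of the log2 CPM difference between the miR-152-3p mimic and scrambled was -0.12, -0.10 and -0.16, and that of genes with no match was 0.014, 0.0095 and 0.041. Genes of one class share libraries, so these values are a description without a test.

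**Figure D3:**
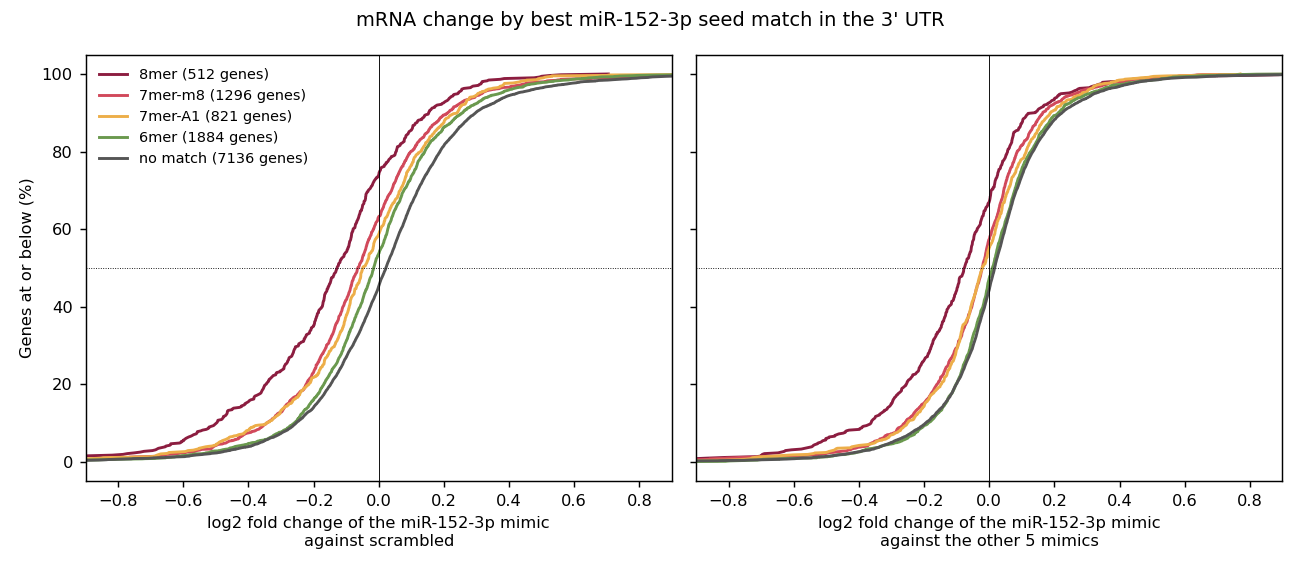
Cumulative share of genes (vertical axis, %) at or below a log2 fold change (horizontal axis) of the miR-152-3p mimic against scrambled (left) and against the other 5 mimics (right), for the 5 classes of best seed match. The 8mer curve lies farthest to the left in both panels, with medians of -0.13 and -0.076.

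Genes with more matches had lower medians. Genes with 0, 1, 2 and at least 3 matches of 7 or 8 bases in the 3′ UTR (9020, 2027, 471 and 131 genes) had median log2 fold changes of 0.014, -0.055, -0.10 and -0.16, and 0.0776%, 1.18%, 3.4% and 7.63% of them fell. The 22 genes with at least 2 8mers had a median of -0.31, and Mgat5 and Otud4 were the 2 of them that fell. Longer 3′ UTRs hold more matches, and the length of the 3′ UTR moved with the result: genes with no match had medians of 0.040, 0.013 and -0.0059 in short, middle and long 3′ UTRs. Within these length groups the 8mer medians were -0.058, -0.12 and -0.14, lower than those of genes with no match in each group. Genes with no match of 6 bases or more in the 3′ UTR were also split by matches elsewhere in the transcript. The 288 with an 8mer there had a median of -0.039, and the 3900 with no match anywhere one of 0.048. Of these 288 and 3900 genes, 0 and 2 fell. The length of the transcript outside the 3′ UTR was not taken into account.

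**Figure D4:**
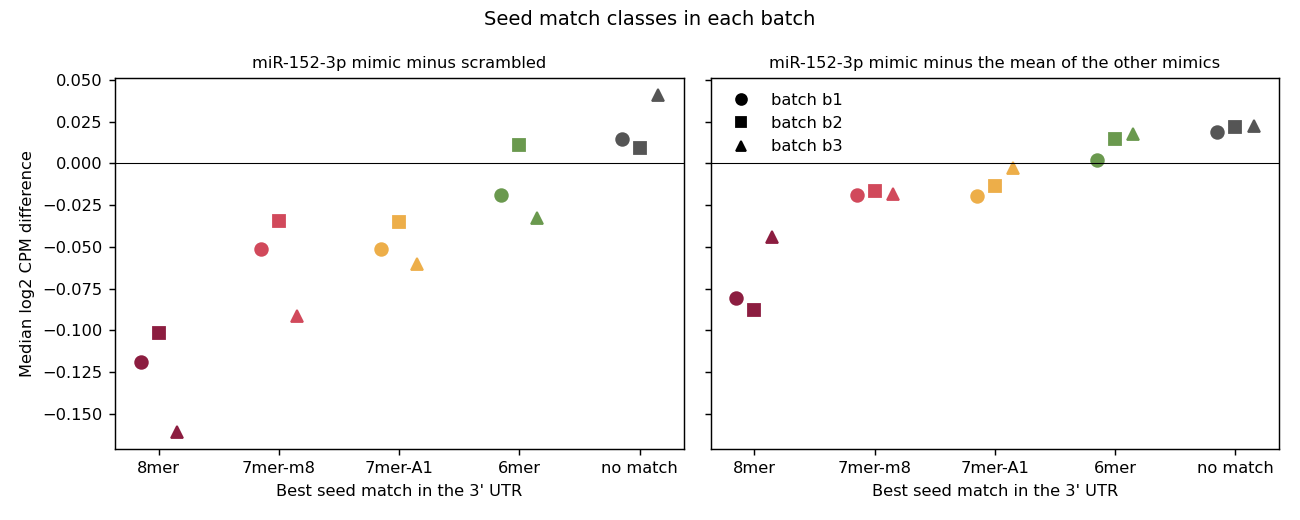
Median log2 CPM difference (vertical axis) of genes in each class of best seed match (horizontal axis), for the miR-152-3p mimic minus scrambled (left) and minus the mean of the other mimics (right) within batches b1, b2 and b3 (symbols). The 8mer medians lay between -0.16 and -0.10 on the left and between -0.088 and -0.044 on the right, below those of the other classes in every batch.

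The genes with a miR-152-3p 8mer had median log2 fold changes against scrambled of -0.072 with miR-23b-5p, -0.042 with miR-433-3p, -0.043 with miR-467e-5p, -0.035 with miR-100-5p and -0.014 with miR-99a-5p, and of -0.016 in untransfected cells. All of these comparisons share the scrambled libraries. Against the mean of the other 5 mimics, the miR-152-3p mimic had medians of -0.076 for 8mer genes, -0.022 for 7mer-m8 genes, -0.021 for 7mer-A1 genes, 0.0095 for 6mer genes and 0.017 for genes with no match. No reference sequence was at hand for miR-467e-5p, so genes were not classed by its seed. The seeds of the remaining mimics are shown from RefSeq (GRCm38) because they define the classes set beside those of miR-152-3p.
miR-433-3p: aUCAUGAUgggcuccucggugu
miR-23b-5p: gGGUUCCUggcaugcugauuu
miR-99a-5p: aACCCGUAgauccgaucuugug
miR-100-5p: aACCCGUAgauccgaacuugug
Genes with an 8mer for its own seed had a median of -0.18 with miR-433-3p (393 genes), -0.080 with miR-23b-5p (481 genes), -0.23 with miR-99a-5p and -0.31 with miR-100-5p. The last 2 share a seed, and the 30 genes with its 8mer had a median of 0.034 with the miR-152-3p mimic.

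**Figure D5:**
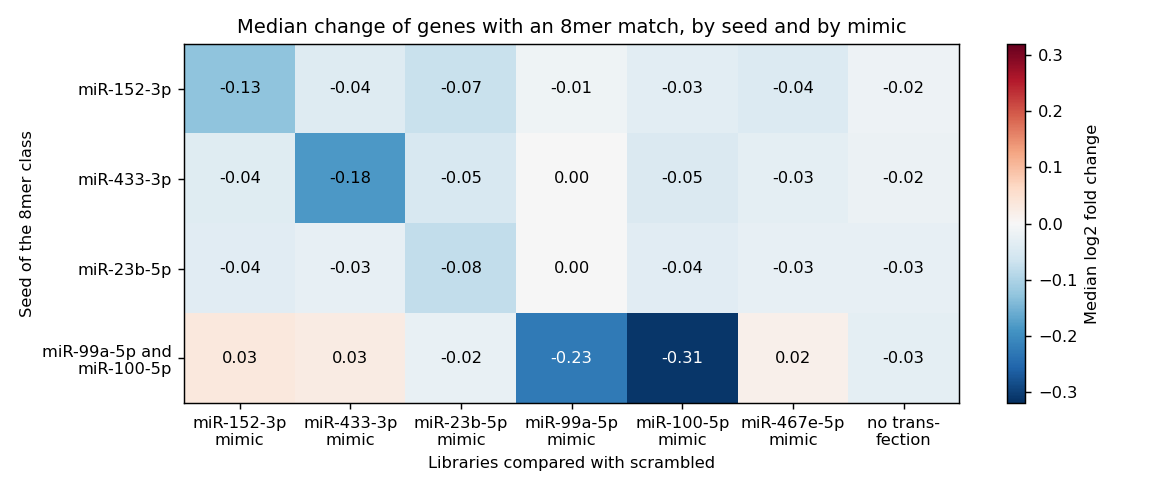
Median log2 fold change against scrambled (color and printed value) of genes with an 8mer for each seed (rows) in the libraries of each mimic and of untransfected cells (columns). Along each seed the lowest value is that of a mimic with that seed, such as -0.13 for miR-152-3p and -0.18 for miR-433-3p.

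Against scrambled, the miR-152-3p mimic had 60 lower and 29 higher. miR-467e-5p had 180 lower and 33 higher (1.47% and 0.269% of the genes tested), miR-433-3p 128 and 74 (1.04% and 0.604%), and miR-23b-5p 77 and 27 (0.628% and 0.220%). miR-99a-5p had 37 and 34 (0.302% and 0.277%), and miR-100-5p 31 and 28 (0.253% and 0.228%). Differences between these counts were not tested.

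The study names miR-152-3p for Eif4h as a predicted regulator and for Dnmt1, Klf4, Cdkn1b and Cdk8 as a known one. Of these 5 genes Dnmt1 fell, as given above, and the others did not pass the two-sided test with adjusted p-values. Each of the 5 had a log2 fold change below 0. The study reported Eif4h as lower with this mimic by a one-sided test without correction, which is a less strict threshold. It also described the known targets as downregulated in the mimic assay. Eif4h is an RNA-binding cofactor of the initiation helicase eIF4A. It had 279, 309.6 and 272 CPM with the miR-152-3p mimic, against 369.5, 310.3 and 313 CPM with scrambled. The groups did not overlap but were nearly equal in batch b2, and the log2 fold change of -0.21 (SE 0.09) did not pass the test (unadjusted p = 0.03, adjusted p = 0.34). Eif4h has 2 matches of 7 or 8 bases in its 3′ UTR. Against the other 5 mimics, which include miR-467e-5p with a log2 fold change of -0.86 for Eif4h against scrambled, its log2 fold change was 0.0071 (SE 0.071). Klf4, a transcription factor of naive pluripotency (7mer-m8), had 202, 164 and 168 CPM with the miR-152-3p mimic, against 234, 191 and 212 CPM with scrambled. It was lower in each batch, with a log2 fold change of -0.26 (SE 0.07) that did not pass the test in edgeR (adjusted p = 0.116) but did with DESeq2 (adjusted p = 0.0387). Klf4 did not pass edgeR's test against the other 5 mimics (log2 fold change -0.15, adjusted p = 0.34) or untransfected cells (-0.14, adjusted p = 0.571). Against scrambled its log2 fold change was -0.26 with miR-467e-5p, -0.23 with miR-433-3p and -0.22 with miR-23b-5p. It was 0.12 with miR-99a-5p and 0.049 with miR-100-5p. Cdkn1b, a cyclin-dependent kinase inhibitor (7mer-A1), had a log2 fold change of -0.16 (SE 0.13, adjusted p = 0.671), and Cdk8, the kinase of the Mediator complex (7mer-m8), one of -0.12 (SE 0.10, adjusted p = 0.693). The groups overlapped for Klf4, Cdkn1b and Cdk8.

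Ajuba, a LIM domain protein of cell junctions with 2 8mers, is a further gene that the study modelled with miR-152-3p. It had 165, 129 and 167 CPM with the miR-152-3p mimic, against 198, 179 and 211 CPM with scrambled. The 3 miR-152-3p libraries lay below the 3 scrambled ones, with a log2 fold change of -0.35 (SE 0.10, adjusted p = 0.141) that passed the test against the other 5 mimics (log2 fold change -0.36, adjusted p = 0.0489) and without a filter on low counts (adjusted p = 0.00396). Ajuba also fell against scrambled with miR-467e-5p, 1 of those 5 mimics (log2 fold change -0.46, adjusted p = 0.0177). Copz2, in whose locus Mir152 lies, was low in both groups, at 1.11 to 5.63 CPM with the miR-152-3p mimic and 0.792 to 4.75 CPM with scrambled (log2 fold change 0.15, SE 0.49, adjusted p = 0.936).

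Among 16 tested genes of a list of reported targets of this family, 2 fell (Dnmt1 and Itga5, with 4 by DESeq2), and 13 had a log2 fold change below 0, against 0.490% that fell and 51.0% below 0 among all genes tested. The median of the list was -0.22, against -0.0044 for all genes tested. Nras, a small GTPase of growth factor signalling with an 8mer, had a log2 fold change of -0.34 (SE 0.09, adjusted p = 0.0774) against scrambled and fell against the other 5 mimics (log2 fold change -0.36, adjusted p = 0.0119). Of the 16 genes 13 have an 8mer or 7mer, so the list overlaps with the seed classes.

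Of 17 genes for miR processing and silencing, 16 had a log2 fold change below 0, with a median of -0.14, and 1 fell (6 were lower at an unadjusted p under 0.05), against 51.0% below 0 and 0.490% that fell among all genes tested. That gene was Ago1, one of the Argonaute proteins, with 78.0, 84.5 and 87.9 CPM with the miR-152-3p mimic, against 124, 109.5 and 137 CPM with scrambled (log2 fold change -0.57, SE 0.10, adjusted p = 0.00428). The groups did not overlap, but against the other 5 mimics, which ranged over 65.4 to 127 CPM, the log2 fold change was -0.30 and did not pass the test (adjusted p = 0.114). Ago2, the Argonaute with slicer activity, and Tnrc6c and Tnrc6b, the Argonaute partners, had log2 fold changes of -0.26, -0.26 and -0.31, with adjusted p-values of 0.241, 0.254 and 0.306. Of the 17 genes 11 have an 8mer or 7mer, and the list median against the other 5 mimics was -0.075. In that comparison 1 gene of the list fell, Tnrc6a, a further Argonaute partner with an 8mer (log2 fold change -0.52, adjusted p = 0.012, and -0.27 against scrambled with an adjusted p of 0.389). Outside the list, Dcp2, the catalytic subunit of the decapping enzyme (8mer), fell against scrambled (log2 fold change -0.49, adjusted p = 0.0076). Its groups overlapped. Dcp2 did not pass the test against the other 5 mimics (log2 fold change -0.28, adjusted p = 0.107) or untransfected cells (log2 fold change -0.42, adjusted p = 0.0588).

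Of 15 DNA methylation genes 1 fell, Dnmt1, with a list median of -0.057. Dnmt3l, the cofactor of the de novo enzymes, had a log2 fold change of -0.14 (adjusted p = 0.346), Tet1, which oxidises methylated cytosine, one of -0.38 (SE 0.17, adjusted p = 0.358), and Dnmt3b, a de novo methyltransferase, one of 0.13 (adjusted p = 0.439). Of 18 naive pluripotency genes 1 rose, Fgf4, with a list median of -0.0019. Tfcp2l1 and Stat3, transcription factors of the naive network, had log2 fold changes of -0.25 and -0.20 (adjusted p = 0.151 and 0.241). Of the 18 genes 9 had a log2 fold change below 0, and 4 were lower and 2 higher at an unadjusted p under 0.05. The highest log2 fold change was that of Dppa3, a maternal factor that protects DNA from demethylation, at 0.90 (SE 0.33, adjusted p = 0.241). Nr0b1, a nuclear receptor of the naive network, fell against the other 5 mimics (log2 fold change -0.36, adjusted p = 0.0147). None of 11 primed and formative, 8 primitive endoderm, 6 neuroectoderm, 2 fibroblast, 2 trophoblast or 5 2-cell-like genes passed the test, with list medians between -0.23 (trophoblast) and 0.21 (fibroblast), and 0 passed with DESeq2. At an unadjusted p under 0.05 in edgeR's test, 3 of the 11 primed and formative genes (Otx2, Zic2 and Lef1), 1 primitive endoderm and 1 trophoblast gene were lower and 1 neuroectoderm gene was higher, and 12.3% of all genes tested lay under that p. Against the other 5 mimics 1 of the primitive endoderm genes fell, Col4a1, a chain of basement membrane collagen with an 8mer (log2 fold change -0.63, adjusted p = 0.025).

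Of 7 tested genes of the interferon and double-stranded RNA response 1 fell, and its list median was 0.097. It was Ddx58, which encodes the RNA sensor RIG-I and has an 8mer. Ddx58 had 52.0, 82.2 and 90.0 CPM with the miR-152-3p mimic, against 61.9, 136 and 101 CPM with scrambled (log2 fold change -0.38, SE 0.09, adjusted p = 0.0395). It was lower in each batch but the groups overlapped, and it fell against the other 5 mimics as well (log2 fold change -0.47, adjusted p = 8.84e-04). Of the 20 genes on the list 13 did not reach a mean count of 20. The 7 genes of the Mediator kinase module had a median of -0.20 and log2 fold changes that were all below 0, from -0.56 for Cdk19, the paralogue of Cdk8 (8mer, adjusted p = 0.139), to -0.12 for Cdk8. None of them passed the test with edgeR or DESeq2 (2 at an unadjusted p under 0.05), and against the other 5 mimics the median was -0.039 and 1 of the 7, Cdk19, fell (log2 fold change -0.58, adjusted p = 0.0478). None of 13 p53 response, 22 translation initiation, 21 G1 and S phase or 20 cholesterol genes passed with either tool, with medians of 0.057, -0.013, 0.0067 and 0.048. At an unadjusted p under 0.05 in edgeR's test, 2, 3, 4 and 1 of these genes were lower and 2, 3, 4 and 0 higher. Against the other 5 mimics 1 p53 response gene fell, Sesn2 (log2 fold change -0.28, adjusted p = 0.0214), and 1 gene of G1 and S phase rose, Ccne1, which encodes cyclin E1 (log2 fold change 0.29, adjusted p = 0.0216).

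The miR-152-3p inhibitor, an antisense locked nucleic acid given for 48 h at a higher concentration, was compared with a scrambled inhibitor in 3 libraries each. Of 13029 genes tested 7 fell and 7 rose (0.0537% each), and 8.57% lay at an unadjusted p under 0.05. Leaving out single libraries gave 5 lower and 11 higher (miR-152-3p inhibitor replicate 1), 2 and 3 (miR-152-3p inhibitor replicate 2), 2 and 2 (miR-152-3p inhibitor replicate 3), 2 and 0 (scrambled inhibitor replicate 1), 10 and 7 (scrambled inhibitor replicate 2) and 5 and 7 (scrambled inhibitor replicate 3). Of the 60 genes that fell with the mimic 59 were tested here. None of them passed edgeR's test in either direction (2 higher and 6 lower at an unadjusted p under 0.05), 25 had a log2 fold change above 0, and their median was -0.027. Dnmt1 had 525, 608 and 462 CPM with the miR-152-3p inhibitor, against 437, 624 and 553 CPM with the scrambled inhibitor (log2 fold change -0.0074, SE 0.079), and Arl6ip1 had 290.1, 348 and 460.5 CPM with the miR-152-3p inhibitor, against 397, 353 and 335 CPM with the scrambled inhibitor (log2 fold change 0.016, SE 0.11). For both genes the groups overlapped. The 8mer class had a median of -0.0055 (-0.033 to 0.0078 with each library left out in turn), and genes with no match one of 0.0034.

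Small RNA libraries of E14 cells before retinoic acid was added (0 h, 4 libraries) give the level of the family that the cells made themselves. miR-152-3p was at 716, 835, 847 and 3510 CPM of the reads assigned to miRs, miR-148a-3p at 10672 to 37982 and miR-148b-3p at 2261 to 3574. miR-152-3p made up 7.74% ± 9.13 of the family (SD, n = 4), with most of the spread from the library at 3510. miR-148a-3p was the most abundant of the 3 in every library at 0 h. These cells were not transfected and come from another experiment.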

How the data were processed

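Per the labels, mRNA libraries were paired-end and strand-specific. The authors trimmed reads with Trimmomatic 0.38, aligned them with STAR 2.6.1a to mm10 (GRCm38) and deposited expected counts per gene from RSEM 1.3.1. Small RNA tables hold estimated counts per mature miR deposited by the authors, with reads that match several miRs shared as fractions, and were scaled here to the library total (CPM).

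Expected counts were rounded, and genes averaging more than 20 counts in the fitted libraries entered the tests. Counts were normalized by TMM and fitted with edgeR 4.0.16 (quasi-likelihood test, two-sided) in R 4.3.3, over 23 libraries of the first mimic set, or 48 inhibitor libraries, with batch as a block. P-values were adjusted after Benjamini and Hochberg across all genes tested. The 6 libraries compared held 10295309 to 19956820 counts each. Standard errors were derived from the log2 fold change and the statistic of the quasi-likelihood test, so they reflect the spread between the fitted libraries. Batches pair the libraries: per the labels each batch holds its own controls, and deviations of the miR-152-3p and scrambled libraries from their group means correlated by 0.50, 0.25 and 0.16 in b1, b2 and b3.

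3′ UTRs were taken from GENCODE M21 (GRCm38). Named genes were the 15 that fell most and the 10 that rose most among those that passed the test, averaged at least 50 counts and had the same sign in all 3 batches, the genes the study names for miR-152-3p, Ajuba, Copz2, and up to 4 members of each of 16 gene lists by lowest p. Members and lists were chosen with earlier results of these data known. Alternatives were DESeq2 1.42.0, its size factors, other filters, no block, other sets of libraries, other references, other 3′ UTRs and each library left out. The second mimic set was not used here. The values of 1 gene that rose are not reported here.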

Additional observations from a re-analysis of the deposited data

How the results depend on the processing

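Each of the 26 named genes past the threshold had the same direction in all alternatives run for it. Arl6ip1, Pnpla6, Il17rd, Dock6, Ankmy2 and Dnmt1 stayed past the threshold whichever of the 6 libraries was left out, and 0 of the 26 did under every alternative. DESeq2 gave 120 lower and 87 higher genes, among them all 60 and 29. Without a filter on low counts 154 genes fell and 77 rose, and the median of genes with no match was 0.0030. Without the batch as a replicate block 3 genes fell, all 3 with an 8mer, and 0 rose. With only the 6 libraries compared 29 fell, 15 of them with an 8mer, and 14 rose. With the miR-100-5p library of batch b3 kept 1 fell, with an 8mer, and 0 rose. With untransfected cells as the reference 24 fell, 18 with an 8mer, and 3 rose, and the medians were -0.035 (7mer-m8), -0.032 (7mer-A1) and 0.0063 (6mer). With the other 5 mimics as the reference 16 rose, and the medians were -0.076 (8mer), -0.022 (7mer-m8), -0.021 (7mer-A1) and 0.0095 (6mer), with a log2 fold change of 0.0071 for Eif4h. In short 3′ UTRs the medians were -0.058 (8mer), -0.017 (7mer-m8), -0.034 (7mer-A1), 0.025 (6mer) and 0.040 (no match), in middle ones -0.033 for both 7mer classes, and in long ones -0.0059 for genes with no match. The causes of these differences were not tested.

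Leaving out each library in turn gave 18 to 80 genes that fell (12 to 31 with an 8mer), 5 to 58 that rose, and a 7mer-A1 median of -0.057 to -0.028. The log2 fold change of Copz2 then ranged over -0.082 to 0.35, and was -0.015 without miR-152-3p b1. For the inhibitor, 1 gene fell and 0 rose without the replicate block, and leaving out each library gave 2 to 10 lower genes, 0 to 11 higher genes and 8mer medians of -0.033 to 0.0078.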
